A study of Dunaliella salina with 18 samples.

Results

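The transcripts described here changed level within 4h in the H2L arm of a salinity experiment and stayed within set limits of the 4h level at 24h, while in the L2H arm 24h lay within 2-fold of 0h. They were chosen by a rule on measured values. Each group was summarised as the mean of its 3 libraries plus 1. The largest H2L group had to reach 11. H2L at 4h and at 24h both had to be at least 2 times the 0h value, which gives the rises, or at most 0.5 of it, which gives the falls. The ratio of H2L 24h to 4h had to lie between 0.67 and 1.5, and that of L2H 24h to 0h between 0.5 and 2. Transcripts with a mean of 1000 or more over all 18 libraries were left out. Of 43236 transcripts in the table, 12664 reached the minimum level in H2L, and 74 met every condition, 33 rises and 41 falls.

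RNA was sequenced from cultures of Dunaliella salina, strain CCAP 19/3, with 3 libraries in each of 6 groups, which are 0h, 4h and 24h in the arms titled H2L and L2H. The sample titles and the condition field give opposite directions for the salt change in each arm, so the arms keep their title names and neither is given a direction. No source used here gives salt concentrations, culture age or how cultures were divided, so the p-values cover only differences among these libraries, possibly technical ones. The titles tag libraries 1 and 2 alike in the H2L and L2H arms. Library 3 has different tags, which also differ by arm, and each tag changes between 4h and 24h. A difference between 24h and an earlier time and a difference between tags cannot be told apart.

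Dunaliella salina is a unicellular green alga that lacks a rigid cell wall and lives in brines. After a change of salinity its cells first swell or shrink and then regain their volume, chiefly by making or removing glycerol, which serves as the compatible solute. A transcript that moves early and keeps its new level differs in course from one that moves only while the cells adjust. The table names assembled sequences and not genes, and 0 of the 74 identifiers matched the reference gene table, so no function is given to any of them.

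Values are abundances scaled by the authors for transcript length and library depth, with library totals between 749880 and 842410 units. No source used here says whether they are FPKM or TPM, and the depth in reads is unknown. In such values fewer cells in a given state and less RNA per cell cannot be told apart.

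**Figure D1:**
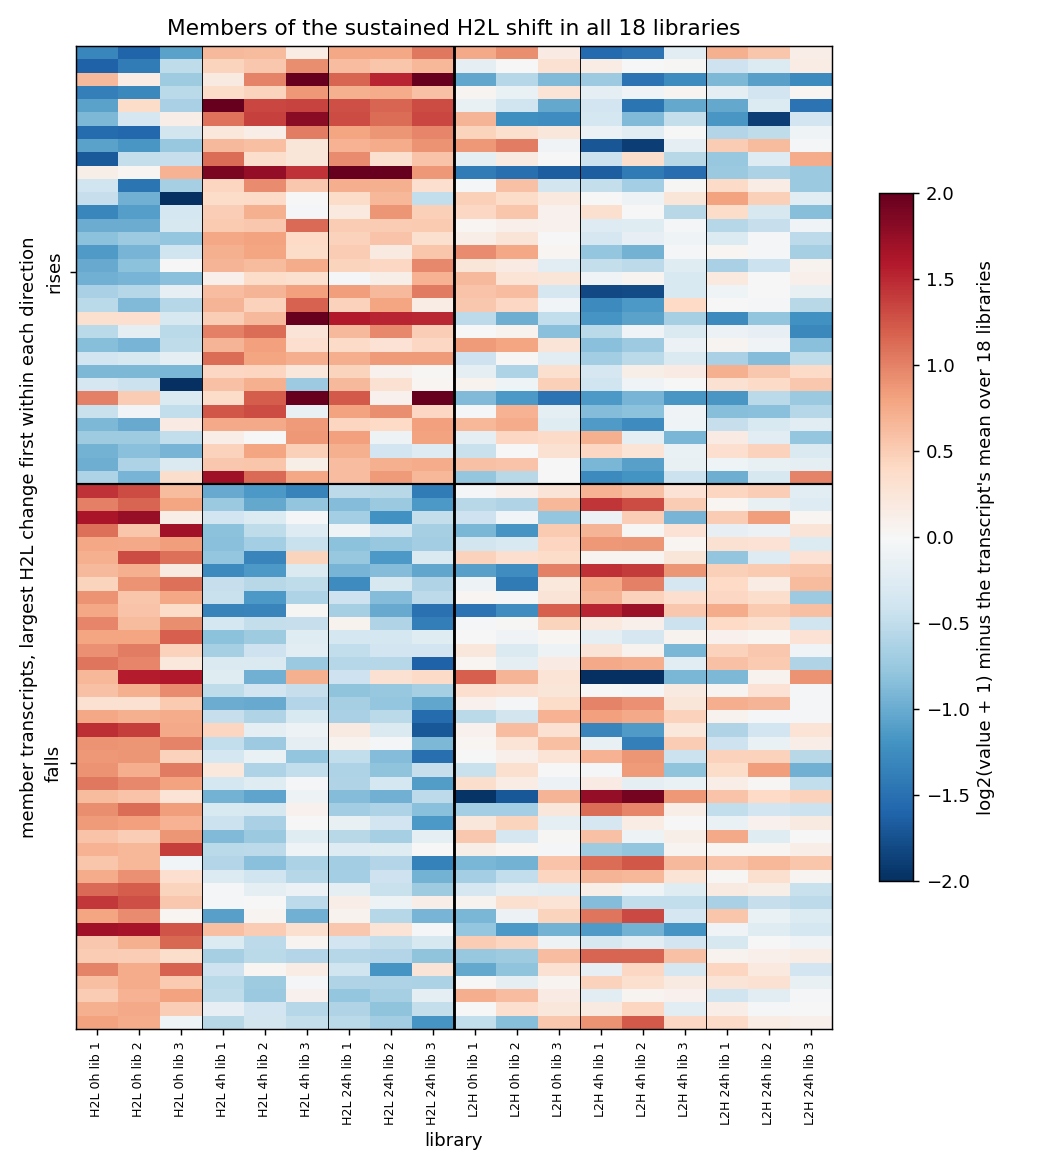
Each row is 1 of the 74 transcripts, with the 33 rises above the black line and the 41 falls below it, and each column is 1 of the 18 libraries. Colour gives log2(value + 1) minus the transcript's own mean over the 18 libraries. H2L 0h stands apart from H2L 4h and 24h because the rule asked for that. In L2H 4h, libraries 1 and 2 often run opposite to H2L, and library 3 does so less.

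The shift was moderate in size. Among the 33 rises the median group mean was 7.59 at H2L 0h, 20.2 at 4h and 20.3 at 24h. The fold over 0h ranged from 2.02 to 3.90 at 4h, with a median of 2.61, and from 2.01 to 4.53 at 24h, with a median of 2.37. Both folds reached 3 in 4 rises and in 2 falls, and none of the 74 reached 4 at both times. Among the 41 falls the median group mean was 26.5 at 0h, 8.54 at 4h and 8.75 at 24h. The falls were 2.01 to 5.03 times lower at 4h (median 2.31) and 2.08 to 4.26 times lower at 24h (median 2.53). The change was further from 0h at 4h than at 24h in 20 of 33 rises and in 12 of 41 falls. All of these values chose the transcripts and are given without a test.

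The replicate libraries were separated for most of them. In 28 of 33 rises all 3 libraries at 4h and all 3 at 24h lay above the 3 at 0h, a pattern that 6.88% of the 12664 transcripts at the same level show. In 39 of 41 falls they all lay below, against 9.4% of those transcripts. The other two falls were c60778_g1_i1 and c51347_g4_i1, named here after their values were seen. Since the rule used these libraries, nothing is read from the counts. Abundance was ordinary. The mean over 18 libraries had a median of 16.9 in the rises and 15.4 in the falls, against 18.1 in the 12664 transcripts.

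The largest rise was c63924_g1_i1. Its H2L libraries read 5.08, 3.94 and 6.18 at 0h, 22.6, 22.3 and 15.6 at 4h, and 24.7, 24.6 and 30.1 at 24h. The group means were 5.07 ± 1.12, 20.2 ± 3.96 and 26.5 ± 3.16 (mean ± SD, n = 3), 3.49-fold higher at 4h and 4.53-fold higher at 24h. No later library overlapped the start. In the L2H arm the same transcript began high, at 24.4, 27.6 and 15.9, and read 4.12, 4.41 and 11.8 at 4h before 23.6, 21.1 and 15.6 at 24h. So libraries 1 and 2 of L2H dipped at 4h to about the level at which H2L began, and library 3 dipped less.

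Among the other large rises c41586_g1_i1 and c42178_g1_i1 were low transcripts. In c41586_g1_i1 the H2L values were 0.95, 4.27 and 1.61 at 0h, 16.5, 9.36 and 9.48 at 4h, and 8.96, 8.17 and 9.14 at 24h, and the groups did not overlap. In c42178_g1_i1 they were 4.26, 2.70 and 1.05 at 0h, 2.79, 5.64 and 24.0 at 4h, and 6.49, 8.59 and 16.8 at 24h. There the 4h libraries overlap those at 0h, and the mean at 4h (10.8 ± 11.5, n = 3) is carried by library 3. Its change at 4h was 0.19 in libraries 1 and 2 and 3.61 in library 3 on the log2(value + 1) scale. The transcripts c68034_g1_i1 and c46804_g1_i1, named after their values were seen, had the same feature, with 0.04 and 0.25 in libraries 1 and 2 against 2.92 and 2.42 in library 3.

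The most abundant rise was c43756_g1_i1. It stood at 245, 258 and 342 in H2L at 0h, at 585, 613 and 679 at 4h, and at 685, 602 and 785 at 24h, so every later library was above every starting one. The group means were 282 ± 52.8, 626 ± 48.5 and 691 ± 92.0 (n = 3), 2.21-fold and then 2.44-fold higher.

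The next most abundant rises share the first part of their identifier, c49062, and may share reads or come from 1 gene. All 4 transcripts of that component in the table met the rule. In H2L c49062_g1_i1 read 87.6, 92.4 and 157 at 0h, 294, 312 and 419 at 4h, and 373, 380 and 344 at 24h. The means of c49062_g2_i1 were 107 ± 30.8, 303 ± 76.9 and 255 ± 1.19, those of c49062_g3_i1 53.5 ± 23.8, 181 ± 33.6 and 177 ± 7.01, and those of c49062_g4_i2 34.6 ± 18.3, 104 ± 38.0 and 135 ± 8.31 (n = 3 throughout). In all 4 of them library 3 was the highest at 0h and at 4h, and at 24h the 3 libraries lay close together. In L2H the component began between the H2L start and the later H2L level, with means at 0h of 240 ± 35.0, 189 ± 4.50, 120 ± 20.7 and 91.4 ± 6.76 in the same order. By 24h those means were 204 ± 30.6, 140 ± 26.4, 103 ± 21.6 and 55.6 ± 10.9.

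**Figure D2:**
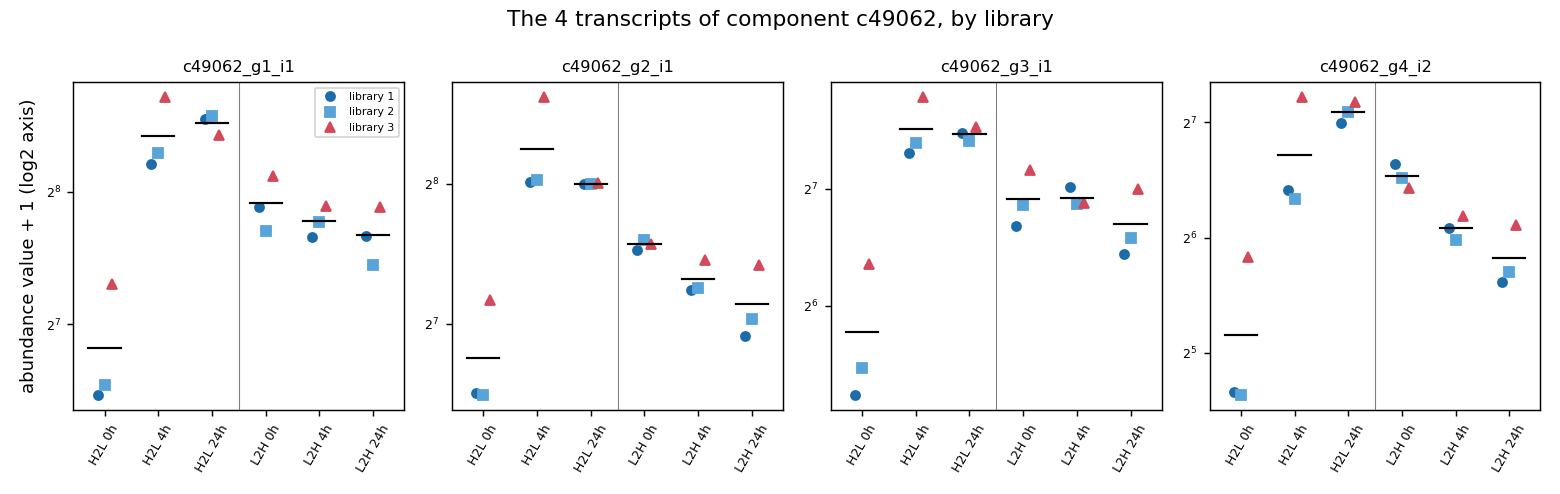
The panels show the 4 transcripts of component c49062, with the abundance value plus 1 on a log2 axis and 1 point per library in the 6 groups. Black bars are group means of 3 libraries plus 1. In every panel the H2L 0h libraries lie below those at 4h and 24h, and library 3 (triangles) is the highest at H2L 0h and 4h.

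In other components only some transcripts were members. In c46216 2 of 5 transcripts were rises. The means of c46216_g3_i2 in H2L were 12.6 ± 4.72, 35.6 ± 7.22 and 34.4 ± 5.31, and those of c46216_g2_i1 were 25.8 ± 4.23, 68.5 ± 11.6 and 57.0 ± 2.55 (n = 3). The other transcripts of that component had ratios to 0h between 0.673 and 1.21 at 4h. In c47624 2 of 5 were falls, c47624_g3_i1 (33.8 ± 4.15, 11.7 ± 3.03 and 12.8 ± 2.16) and c47624_g2_i1 (14.0 ± 1.64, 5.78 ± 2.23 and 4.29 ± 0.645). A component-mate, c47624_g4_i1, went the other way, with ratios of 1.49 and 1.65. In c49234 2 of 8 were falls, and another, c49234_g4_i2, was 3.91 times its start at 4h and 1.21 times at 24h. Members of c49234 are described below with the abundant falls. The 33 rises came from 29 components and the 41 falls from 39.

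The largest fall was c50276_g1_i1. In H2L it read 57.1, 51.9 and 31.9 at 0h, then 9.60, 8.58 and 7.44 at 4h, and 13.9, 13.5 and 7.10 at 24h. The group means were 47.0 ± 13.3, 8.54 ± 1.08 and 11.5 ± 3.83 (n = 3), which is 5.03-fold lower at 4h and 3.83-fold lower at 24h. L2H held the transcript between these levels, at 22.0 ± 2.33, 29.8 ± 4.43 and 24.6 ± 6.48. Next came c45011_g2_i1, at 35.8, 39.8 and 30.6 in H2L at 0h, 9.89, 7.98 and 9.60 at 4h, and 9.03, 9.95 and 7.27 at 24h. These groups were far apart, with folds of 3.58 and 3.73. Of the 5 largest falls c47565_g1_i2 varied least between libraries at 0h, and its H2L means were 15.0 ± 0.476, 4.93 ± 0.829 and 4.48 ± 0.235 (n = 3), 2.70-fold and then 2.92-fold lower.

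Starting libraries spread more widely in the other large falls. The transcript c42563_g1_i1 read 28.8, 31.1 and 9.47 at H2L 0h, against 6.33, 6.93 and 8.30 at 4h. Library 3 therefore changed little at 4h, although the groups did not overlap. In c492_g1_i1 the starting libraries were 12.7, 8.38 and 19.6, and the later ones lay between 2.60 and 4.99, clear of the start.

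Among abundant falls c51081_g2_i1 went from 155, 154 and 206 at H2L 0h to 50.0, 54.1 and 75.6 at 4h and 69.6, 70.0 and 75.6 at 24h. Its means were 2.84-fold and then 2.38-fold lower than the start. The transcript c50688_g1_i2 had a like course, at 153 ± 46.3, 60.6 ± 11.4 and 70.2 ± 7.50 (n = 3). Both had library 3 as the highest at 0h. In c49234_g1_i1 the order was the reverse. It read 137, 127 and 75.0 at 0h, 52.8, 52.7 and 38.2 at 4h, and 43.0, 43.2 and 20.4 at 24h. Its component-mate c49234_g8_i1, which may share its reads, stood at 89.9 ± 14.6, 39.9 ± 8.98 and 28.0 ± 9.71.

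**Figure D3:**
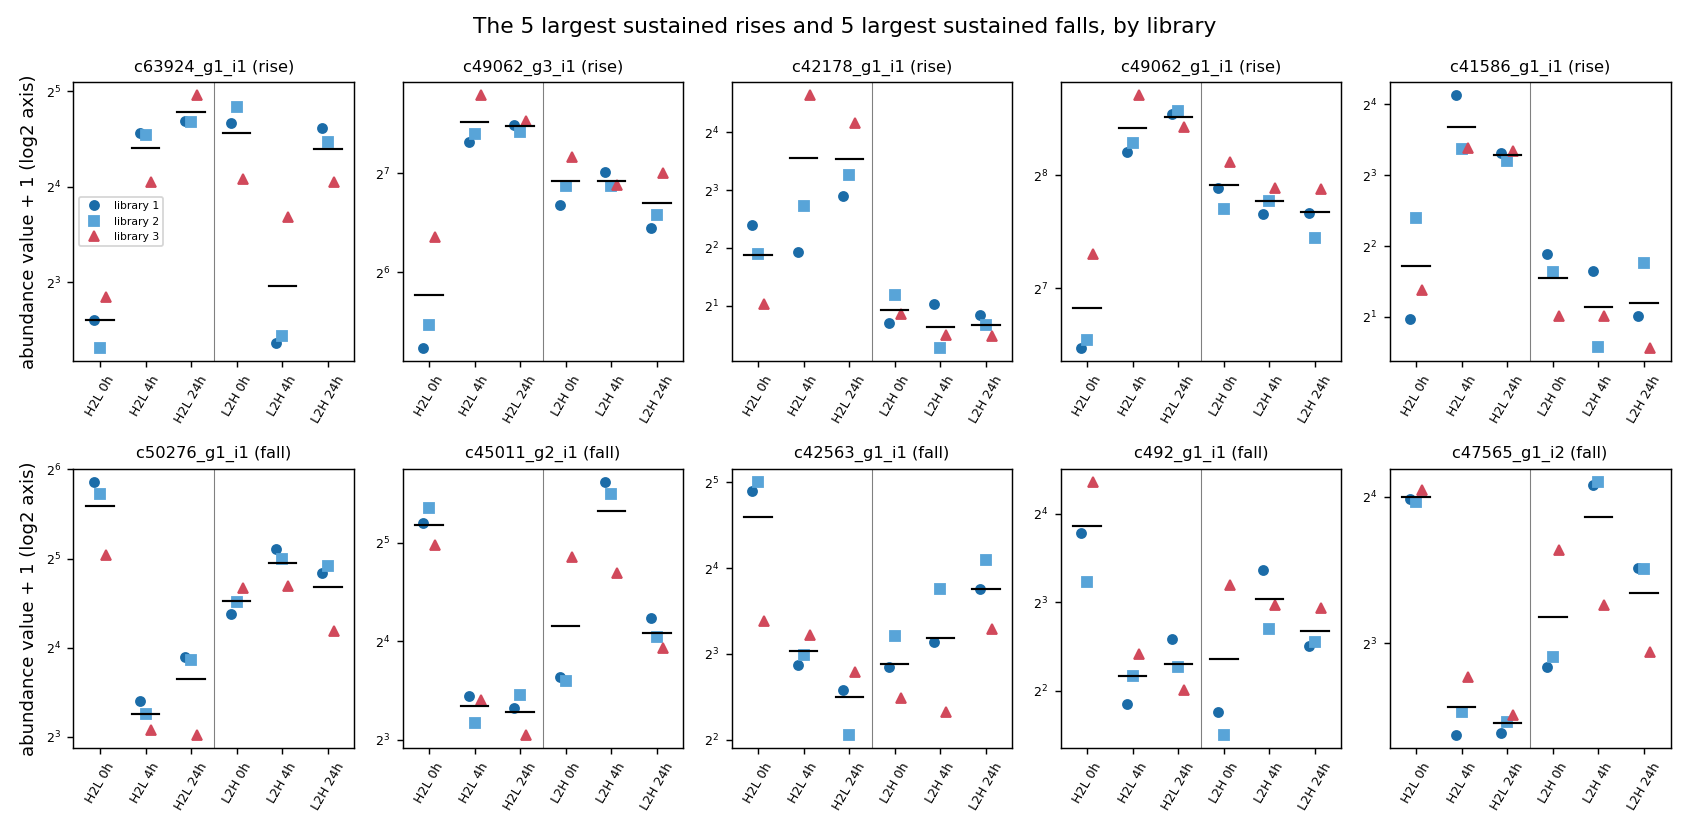
Abundance value plus 1 (log2 axis) of the 5 largest rises, in the upper row, and the 5 largest falls, in the lower row, with 1 point per library and black bars for group means plus 1. The plot shows c42178_g1_i1 overlapping between H2L 0h and 4h, with values of 2.79 to 24.0 at 4h, while the other members drawn are separated at both times.

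The rule draws its line inside a continuum. The rises nearest to the threshold from within were c59224_g1_i1 (smaller fold 2.01, H2L means 14.0 ± 7.40, 42.4 ± 14.3 and 29.1 ± 2.67) and c42905_g1_i1 (2.02, means 11.4 ± 2.91, 24.1 ± 4.18 and 29.4 ± 1.37). Just outside it were c46026_g1_i1 at 1.97 and c49575_g4_i2 at 1.97. Among falls, c50196_g1_i1 (2.01, means 64.9 ± 20.0, 31.8 ± 2.13 and 25.4 ± 5.66) and c41788_g1_i1 (2.02, means 10.3 ± 1.08, 4.60 ± 0.792 and 3.66 ± 0.521) lay inside, and c42531_g1_i1 and c51368_g2_i2 lay outside at 1.99 each. The spread between libraries at these transcripts exceeds their distance from the threshold. Leaving out any 1 of the 18 libraries in turn kept 12 of 33 rises and 9 of 41 falls in the set every time. The 12 include c63924_g1_i1, c43756_g1_i1, c40334_g1_i2, c46216_g3_i2 and 3 of the c49062 transcripts, and the 9 include c45011_g2_i1, c47565_g1_i2, c51081_g2_i1 and c47624_g3_i1.

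The shift of the members was also read in each library series apart. In libraries 1 and 2 alone, 27 of 33 rises and 38 of 41 falls were 2-fold from the start at both times. In library 3 alone 15 rises and 17 falls were. Libraries 1 and 2 gave 2 of the 3 values in each group mean that chose the members. Nothing is therefore read from this difference between the series. The direction at both times was the same in both series for 32 rises and 41 falls. The exception was c68034_g1_i1, where libraries 1 and 2 stood 0.10 below the start at 24h on the log2(value + 1) scale (a difference of -0.10) and library 3 stood 2.74 above it.

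**Figure D4:**
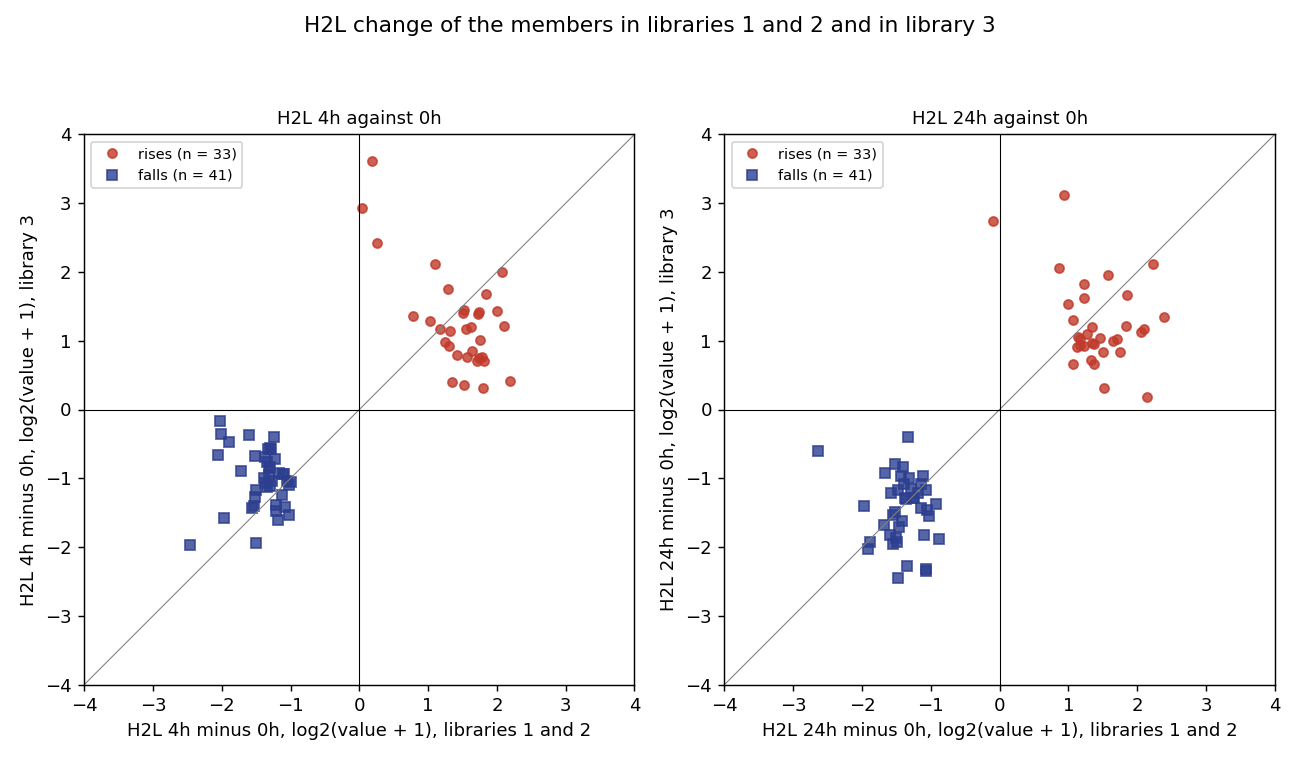
Change from H2L 0h at 4h (left) and 24h (right) on the log2(value + 1) scale, with the mean of libraries 1 and 2 on the horizontal axis and library 3 on the vertical, for 33 rises (circles) and 41 falls (squares). The grey line marks equal change. Most members lie in the quadrant of their direction in both series, and at 4h 3 rises (c42178_g1_i1, c68034_g1_i1 and c46804_g1_i1) lie near 0 in libraries 1 and 2 but between 2.42 and 3.61 in library 3.

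Libraries that did not take part in the choice allow a check of the shift. When the same rule was applied to libraries 1 and 2 of each group, it gave 46 rises and 64 falls. In library 3, 39 of those 46 (84.8%) were above the start at both later times, against 25.4% of 13001 transcripts at the same level, and 52 of the 64 (81.2%) were below it, against 37.7%. A 2-fold change at both times was seen in library 3 for 9 of the 46 (19.6%), against 0.654%, and for 13 of the 64 (20.3%), against 0.538%. In library 3 the median change of those rises was 0.78 at 4h and 0.87 at 24h, and that of those falls was -0.67 and -1.21, on the log2 scale of values plus 1. In libraries 1 and 2, which made the choice, those medians were 1.40 and 1.30 for rises and -1.28 and -1.30 for falls.

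The converse choice gave a like result. Applied to library 3 of each group, the rule gave 42 rises and 69 falls. In libraries 1 and 2, 33 of the 42 (78.6%) were above the start at both times, against 32.6% of 12350 transcripts, and 54 of the 69 (78.3%) were below, against 31.8%. A 2-fold change at both times was found for 10 of the 42 (23.8%), against 0.575%, and for 13 of the 69 (18.8%), against 0.68%. In libraries 1 and 2 the median change of those rises was 1.06 at 4h and 0.60 at 24h, and that of those falls was -0.83 and -0.61. In the libraries that made the choice the medians were 1.40 and 1.34 for rises and -1.38 and -1.33 for falls. In both readings the held-back medians had the sign of the choice and were smaller in size. There is 1 library per group on one side of each reading, so no test is given. Of the 33 rises, 21 were also chosen in libraries 1 and 2 and 9 in library 3. Of the 41 falls, 29 and 13 were.

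In the L2H arm the rule fixed that 24h and 0h lie within 2-fold. Rises had a median group mean of 16.4 at L2H 0h, 10.95 at 4h and 16.0 at 24h, and falls had 16.0, 24.1 and 16.3. The ratio of L2H 24h to 0h ran from 0.516 to 1.75 in the rises, with a median of 0.783, and from 0.587 to 1.94 in the falls, with a median of 1.11, so some members changed by nearly the limit. In 8 rises and 3 falls all L2H libraries at 24h lay below those at 0h, against 6.86% of the 12398 transcripts that reach the minimum level and meet the L2H condition. In 2 rises and 2 falls they all lay above, against 16.1%. The rule used this contrast, so nothing is read from these counts. The L2H level, taken as the mean of 0h and 24h, lay between the H2L start and the later H2L level in 25 of 33 rises and in 39 of 41 falls. In 19 of those 25 rises and 23 of those 39 falls it was nearer to the later H2L level. Choosing transcripts with an extreme H2L start makes such an order more likely, so it is given as a description.

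Some members were low in L2H throughout. For 7 rises the L2H level was below even the H2L start. The transcript c45694_g1_i1 ranged from 0.22 to 1.47 over the 9 L2H libraries, with a median of 0.44, and from 2.95 to 17.6 over the 9 H2L libraries. For c42178_g1_i1 the L2H libraries lay between 0.20 and 1.27, for c41586_g1_i1 between 0.47 and 2.69, and for c46804_g1_i1 between 0.98 and 2.40. In these 4 rises no L2H library reached the lowest H2L library at 4h or 24h. For 1 rise, c49326_g3_i1, the L2H level of 20.7 was above the later H2L level of 18.9. Among falls c46150_g10_i4 was the lowest in L2H, at 0.81 to 2.92 against 3.04 to 12.2 in H2L. These members were picked out after their values were seen.

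The rule used the L2H libraries at 4h only through the upper limit on the mean over 18 libraries. What the same transcripts did there was therefore tested, but the test is not free of the rule. Its spread comes from all 18 libraries, H2L included, and its contrast uses L2H 0h and 24h. With limma across all 18 libraries, L2H 4h was compared with the mean of L2H 0h and 24h, whose ratio the rule limits. The background is therefore also given for the 12398 transcripts with the same limit on that ratio and the same minimum level. At an adjusted p under 0.05 limma called 9 of the 74 members (12.2%), against 2.84% of all 34166 transcripts tested and 5.44% of those 12398. Neither background was limited to transcripts that changed in H2L, so the higher share is not read as particular to the members. All 4 rises called were lower at L2H 4h, where 1.53% of all transcripts tested and 2.86% of the 12398 were called lower. Of the 5 falls called 4 were higher, where 1.31% and 2.58% were called higher. So 8 of the 9 moved opposite to their H2L change in the mean of the 3 libraries. From L2H 0h to 4h, library 3 moved slightly in the H2L direction in c43756_g1_i1 (0.04), c45011_g2_i1 (-0.16), c5419_g1_i1 (-0.09) and c49535_g2_i2 (-0.03). In the others of those 8 it moved opposite to H2L. The median change was -0.23 over the 33 rises and 0.19 over the 41 falls, against -0.02 over all transcripts tested (log2 scale). Once libraries 1 and 2 were averaged into 1 sample, limma called 0 members, and 4 rises and 5 falls had an unadjusted p under 0.05. With L2H libraries only it called 0 members and 2 of all transcripts tested. There 10 rises and 16 falls had an unadjusted p under 0.05. With L2H libraries and a term for library number it called 0 of either. Leaving out library 1 or library 2 of L2H 4h also ended every member's call. Omitting library 3 instead raised the members called to 20 (L2H 0h) and 19 (L2H 4h).

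Against L2H 0h alone limma called 13 members (17.6%), where it called 2.24% of all transcripts tested and 4.36% of the 12398. The rule used L2H 0h through its ratio to 24h, so these calls are given beside the others as a description and support nothing further. They were 6 rises, all lower at L2H 4h, and 7 falls, of which 6 were higher. Of all transcripts tested 1.07% were called lower and 1.17% higher, and of the 12398 1.82% and 2.53%. All 9 members called against the mean were among the 13. The adjusted p of the 13 lay between 0.0384 and 0.0451, close to the threshold, and limma called 0 of them without library 1 or 2 of any group in either arm. It called 21 and 24 members without library 3 of L2H 0h or of L2H 4h, and 0 after averaging libraries 1 and 2, where 7 rises and 8 falls had an unadjusted p under 0.05. The 3 L2H libraries at 4h lay wholly below those at 0h in 10 rises and 6 falls, against 10.1% of the 12398. They lay wholly above in 0 rises and 5 falls, against 10.3%. Nothing is read from these counts either, since the rule used L2H 0h.

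Among rises, c63924_g1_i1, whose L2H values are given above, was lower at L2H 4h than the mean of 0h and 24h by a log2 change of -1.63 (SE 0.25, limma adjusted p = 0.0122). The transcript c40334_g1_i2 read 46.8, 52.4 and 24.0 at L2H 0h, 7.00, 6.12 and 22.1 at 4h, and 36.3, 39.8 and 24.5 at 24h (log2 change -1.75, SE 0.30, limma adjusted p = 0.0140). Its H2L libraries read 11.4, 10.6 and 14.5 at 0h and 30.1 or more at both later times. The abundant c43756_g1_i1 stood at 569, 586 and 303 at L2H 0h, 109, 110 and 311 at 4h, and 362, 381 and 346 at 24h (log2 change -1.40, SE 0.27, limma adjusted p = 0.0176). In these 3 transcripts libraries 1 and 2 were several-fold lower at 4h than at 0h, and library 3 differed little between those times. The call was lost in 5 of 30 alternatives for each of them. The transcript c42905_g1_i1, near the threshold in H2L, was also called (log2 change -0.84, SE 0.20, limma adjusted p = 0.0337), and lost its call in 10 of 30 alternatives.

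Of the falls called higher at L2H 4h c42987_g1_i1 had the largest change. It read 13.01, 15.8 and 85.7 at 0h, 183, 204 and 98.2 at 4h, and 79.7, 70.4 and 74.2 at 24h (log2 change 1.77 against the mean of 0h and 24h, SE 0.41, limma adjusted p = 0.0320). The 3 libraries at 4h were above all others, but library 3 by a narrow margin. In H2L the same transcript went from 83.2, 79.8 and 64.4 at 0h to 25.1 to 49.4 at 4h. For c45011_g2_i1 the L2H values were 11.4, 11.1 and 28.0, then 48.2, 44.1 and 24.9, then 17.9, 15.6 and 14.3 (log2 change 1.22, SE 0.24, limma adjusted p = 0.0185). Here library 3 was slightly lower at 4h than at 0h. The transcripts c5419_g1_i1 and c49535_g2_i2, named because few were called, also passed, with log2 changes of 1.15 and 1.06 (limma adjusted p = 0.0148 and 0.0230). The call was lost in 10 of 30 alternatives for c42987_g1_i1, in 8 for c49535_g2_i2 and in 5 for each of the others.

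The exception among the falls was c60778_g1_i1, which was lower at L2H 4h. It read 11.7, 7.83 and 5.67 at L2H 0h, was listed at 0 in libraries 1 and 2 at 4h with 1.92 in library 3, and read 1.96, 4.79 and 9.28 at 24h. The limma call had an adjusted p of 0.0163, and its log2 change depends on the pseudocount because of the values listed at 0. It is 1 of the 2 falls whose H2L libraries overlapped, reading 7.75, 15.4 and 15.6 at 0h and 3.63, 1.84 and 7.99 at 4h.

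The library series of L2H differed at 4h. In libraries 1 and 2, 15 of 41 falls (36.6%) were at least 2-fold higher at 4h than at 0h, against 4.95% of the 12398 transcripts that have the members' minimum level and meet the L2H condition. In the same libraries 9 of 33 rises (27.3%) were at least 2-fold lower, against 4.78%. In library 3, 0 of 41 falls were 2-fold higher, against 0.218%, and 1 of 33 rises was 2-fold lower, against 0.508%. The median absolute log2 change of the falls was 0.83 in libraries 1 and 2 and 0.16 in library 3, and that of the rises was 0.47 and 0.24. For all 12664 transcripts at the members' level these medians were 0.36 and 0.15. So library 3 showed less change between 0h and 4h in L2H for transcripts in general too. With sign, the median change of the falls was 0.49 in libraries 1 and 2 and -0.13 in library 3. That of the rises was -0.44 and -0.12, and that of the 12664 transcripts was 0.09 and -0.04. In library 3 the falls therefore did not show the median increase seen in libraries 1 and 2.

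Among the 13 members called, libraries 1 and 2 changed by 1.59 to 3.66 in size on the log2(value + 1) scale, and library 3 changed by at most 0.40 in 12 of them and by 1.19 in the remaining one, c60778_g1_i1. Library 3 moved opposite to libraries 1 and 2 in c43756_g1_i1 (0.04), c45011_g2_i1 (-0.16), c50227_g1_i1 (-0.11), c5419_g1_i1 (-0.09) and c49535_g2_i2 (-0.03). In the other members called, both series moved the same way. The transcript c50227_g1_i1 is named here after its values were seen. In all 13 L2H library 3 at 0h and at 4h lay between the means of libraries 1 and 2 at those times. Whether this difference goes with the title tags, with the cultures or with their timing was not tested.

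**Figure D5:**
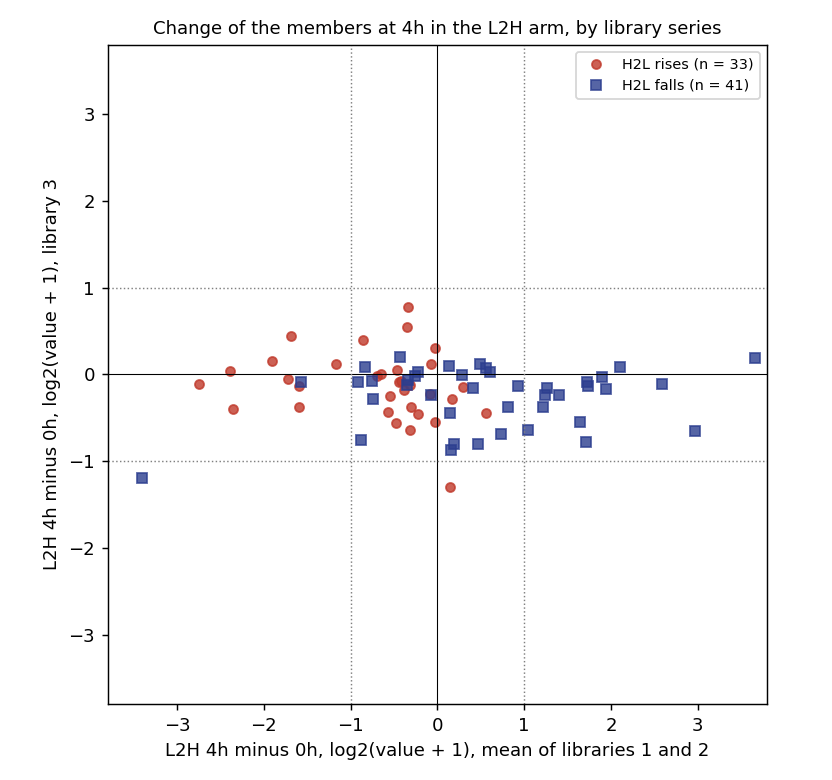
Change of the 33 rises (circles) and 41 falls (squares) from L2H 0h to 4h on the log2(value + 1) scale, as the mean of libraries 1 and 2 (horizontal) and in library 3 (vertical), with dotted lines at 2-fold. Members spread along the horizontal axis, with 9 rises left of the 2-fold line and 15 falls right of it, and mostly lie between the 2-fold lines on the vertical axis.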

How the data were processed

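RNA sequencing of 18 libraries was analysed, 3 per group. The submitters' processing notes name FastQC, Bowtie2 and RSEM without versions. The authors deposited 1 table whose unit is an abundance signal that accounts for the length of each transcript and the depth of each library. Columns were matched by sample title, and 0 columns belonged to no sample. The members, the lists and the alternatives were chosen with earlier results of these data known.

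The rule given with the results was applied to the values as deposited. For tests, values were taken as log2(value + 1), which understates changes of low transcripts. A transcript entered the tests if 3 or more libraries read 1 or higher, which kept 34166 and every member. The linear model of limma 3.58.1 (R 4.3.3) had a mean for each of the 6 groups, used all 18 libraries and let the prior variance follow abundance. P-values were two-sided with Benjamini-Hochberg adjustment over all transcripts tested, and calls were made under 0.05. The fit was tested on simulated data in which all libraries were drawn independently. Those data had no difference between library series like that seen in L2H, so that test does not cover it. No count model was applied, since the values are not counts.

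Transcripts were named by rule: per direction the 5 with the largest smaller change, the 3 most abundant, the 3 largest called changes at L2H 4h and the 2 nearest the threshold on either side, and the 3 components with most members, of which 4 are given because of ties. Others are marked where they appear. Sequences of these transcripts were not used here.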

Additional observations from a re-analysis of the deposited data

Results flagged for a closer look

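In 15 members all 3 libraries at 4h lay on one side of all 3 at 0h in H2L and on the opposite side in L2H, 10 of them rises and 5 falls. Another 5 members, all of them falls, had libraries apart in the same direction in both arms. Of the 12398 transcripts that reach the minimum level and meet the L2H condition, 10.3% had L2H libraries at 4h wholly above those at 0h and 10.1% wholly below. Among the falls 12.2% lay wholly above, which is near that share, and 14.6% wholly below. Among the rises 0% lay wholly above and 30.3% wholly below. Of those rises c49062_g4_i2, c49062_g2_i1, c45917_g2_i3, c50910_g3_i1, c46216_g2_i1 and c42905_g1_i1 also lay wholly below 0h at L2H 24h. The rule used L2H 0h through its ratio to 24h, so nothing is read from these shares. The share of all transcripts with either pattern in both arms was not counted, so nothing is read from the 15 or the 5. The H2L change was fixed by the rule, and the difference between the arms was not tested.

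Among the rises the log2 change from L2H 0h to 4h was -1.87 for c40334_g1_i2, -1.70 for c63924_g1_i1, -1.19 for c46216_g2_i1, -1.17 for c42382_g1_i1 and -1.11 for c42905_g1_i1, each called by limma. It was -0.50 for c50910_g3_i1, -0.47 for c45980_g1_i1, -0.44 for c49062_g4_i2, -0.32 for c45917_g2_i3 and -0.25 for c49062_g2_i1, none of them called (limma adjusted p from 0.124 to 0.526).

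Among the falls it was 2.51 for c42987_g1_i1 and 1.43 for c55145_g1_i1, both called. It was 0.41 for c50276_g1_i1, 0.40 for c47624_g3_i1 and 0.37 for c50083_g2_i1, none of them called (limma adjusted p 0.416, 0.423 and 0.229). In library 3 the change of c42987_g1_i1 was 0.19 and that of c55145_g1_i1 was 0.08.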

How the results depend on the processing

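The set depends on how the rule is applied. It held 15 rises and 20 falls with an offset of 5 in place of 1, 4 and 2 with a 3-fold minimum, 46 and 64 with libraries 1 and 2 only, and 42 and 69 with library 3 of each group only. With an offset of 0.1, group medians, a wider ratio of 24h to 4h, no L2H condition, quantile normalization or upper-quartile scaling it held 39 to 45 rises and 41 to 53 falls. Not all of these were the same transcripts. Group medians kept 23 of the 33 rises and 32 of the 41 falls, and an offset of 0.1 kept 28 and 35. The other settings in this list kept 30 to 33 rises and 40 or 41 falls. Leaving out 1 library gave 28 to 54 rises and 34 to 71 falls, and the highest counts came without H2L 0h library 3.

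Limma's counts of calls varied widely between settings. The 765 transcripts called between L2H 0h and 4h were 1392 with a minimum value of 10, 8733 with libraries 1 and 2 only, 4794 with library 3 left out at L2H 0h and 4h, and 1 with no trend. They were 0 with L2H libraries only, 0 with the replicate block and 0 with libraries 1 and 2 averaged (5823, 5738 and 1810 at an unadjusted p under 0.05). The 13 members called were 41, 27 and 0 with libraries 1 and 2 only, with that omission and with no trend, and 0 with L2H libraries only, with the block and with averaging. Leaving out 1 library gave 0 to 3301 transcripts and 0 to 24 members. Against the mean of L2H 0h and 24h the 970 transcripts were 7349 with libraries 1 and 2 only, 4023 with that omission, 449 with no trend, 2 with L2H libraries only, and 0 with the block and with averaging (5390 and 2073 unadjusted). The 9 members were 37 and 24 in the first of these, and 0 with L2H libraries only, with the block and with averaging. Leaving out 1 library gave 0 to 2620 transcripts and 0 to 20 members. No sign of a called member changed under any alternative run. Every one of them kept library 1 or library 2 at L2H 0h and 4h, and none used library 3 alone. The sign could therefore hardly change, and in library 3 some called members moved the other way, as given above. The cause of these differences was not tested.

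Deviations of same-numbered libraries correlated at 0.07 to 0.26 across times in H2L and at -0.18 to 0.15 in L2H. Not every pair passed 0.1, so the numbers were not taken to pair the libraries. A library correlated best with its own number in 13 of 18 comparisons in H2L and 12 of 18 in L2H. That is a hint from the data and not the design that libraries of 1 number share something. Between L2H 0h and 4h the correlations of same-numbered libraries were negative, at -0.045, -0.044 and -0.18. No such hint is taken for that pair of times, which the calls above compare. The depth in reads is unknown, so no counting interval is given for low transcripts.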
